A study of Mus musculus with 35 samples.

Results

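The libraries described here measured the response to TGF-β of primary adult mouse cardiac fibroblasts (CFs) that had been transfected with IAMP-siR-1, an siRNA against the IAMP gene 4930523C07Rik. The response was taken as the 3 IAMP-siR-1 libraries of the TGF-β table against the 3 IAMP-siR-1 libraries of the untreated table, joined on gene identifier, which makes 6 of the 35 samples of the series and takes in all genes. The CFs were obtained by enzymatic digestion and adherence, and the labels give no strain, genotype or age beyond adult mice and no agent besides the siRNAs and stimuli. The other groups used for comparison were CFs with a Scrambled siRNA or with IAMP-siR-2, a second siRNA against the same gene, each untreated and with TGF-β, and CFs with IAMP-siR-1 and IL-17, each of 3 libraries. The labels give 24 h of siRNA and then 24 h of IL-17 for the IL-17 cells, and give neither a dose nor a time for TGF-β. Nothing in the labels says whether the 3 libraries of a group came from separate cultures or animals, so p-values measure only the spread between these libraries, which may be technical.

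TGF-β is released from a latent complex bound to the extracellular matrix and signals through a pair of serine/threonine kinase receptors, TGFBR1 and TGFBR2, to SMAD2 and SMAD3, which enter the nucleus with SMAD4. In CFs the pathway is known for turning the cell into a contractile, matrix-producing myofibroblast that expresses smooth muscle actin, and for inducing its own inhibitors. It is also known for slowing the growth of many cell types.

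Each stimulus was deposited in its own table, so TGF-β and whatever else separates the tables cannot be told apart in any change from the untreated to the TGF-β libraries. The 3 IAMP-siR-1 untreated libraries held 115485556 to 117182336 estimated counts and the 3 with TGF-β 106507725 to 106962479. Mitochondrial genes took 2.30 to 2.40% of the counts without and 3.15 to 3.38% with TGF-β, and 2.28 to 2.41% in the IAMP-siR-1 libraries with IL-17. The first principal component, with 73.2% of the variance over the 18 untreated and TGF-β libraries, separated the tables. Of the defining fibroblast markers Pdgfra, Tcf21, Ddr2, Thy1, Col1a1 and Dcn the lowest was Thy1, with at least 7941 estimated counts in each of the 6 libraries, while among 24 genes of CF identity Wt1 had 0 to 24 and Pi16 56 to 84 estimated counts in the untreated ones.

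With IAMP-siR-1, 2761 genes were higher with TGF-β, 12.8% of the 21508 tested, and 1734 were lower, 8.06% (edgeR quasi-likelihood test, Benjamini-Hochberg adjusted p of at most 0.05 and a log2 fold change of at least 1 in size). These thresholds define what "rose" and "fell" mean below. The median log2 fold change over all genes was 0.06, and 7326 genes (34.1%) had all 3 TGF-β libraries above all 3 untreated ones, with 6853 (31.9%) below. The share of genes called was therefore large before any group of genes was considered. With Scrambled, 2683 genes rose (12.5%) and 1951 fell (9.07%), and with IAMP-siR-2, 2789 rose (13%) and 1736 fell (8.07%). Of the genes that rose with IAMP-siR-1, 1933 also rose with Scrambled, which was 70.0% of the first list and 72.0% of the second. The genes that fell shared 1257 members, 72.5% of the IAMP-siR-1 list and 64.4% of the Scrambled list. Both responses were read between the same pair of tables.

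The change also followed the length and base composition of the transcripts. Among 13385 genes at 1 CPM (counts as a share of the library total, TMM-scaled) or more, the median log2 fold change was 0.24 in the shortest quintile and −0.36 in the longest, and −0.31 in the quintile with the lowest GC content against 0.30 in the highest. The share called lower was 5.34% in the shortest and 16.6% in the longest quintile. The gradient was of the same form with Scrambled and IAMP-siR-2, and its part in single changes was not tested. For the lists below, medians are also given after subtracting the median of genes of like length and GC content (centred medians).

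**Figure D1:**
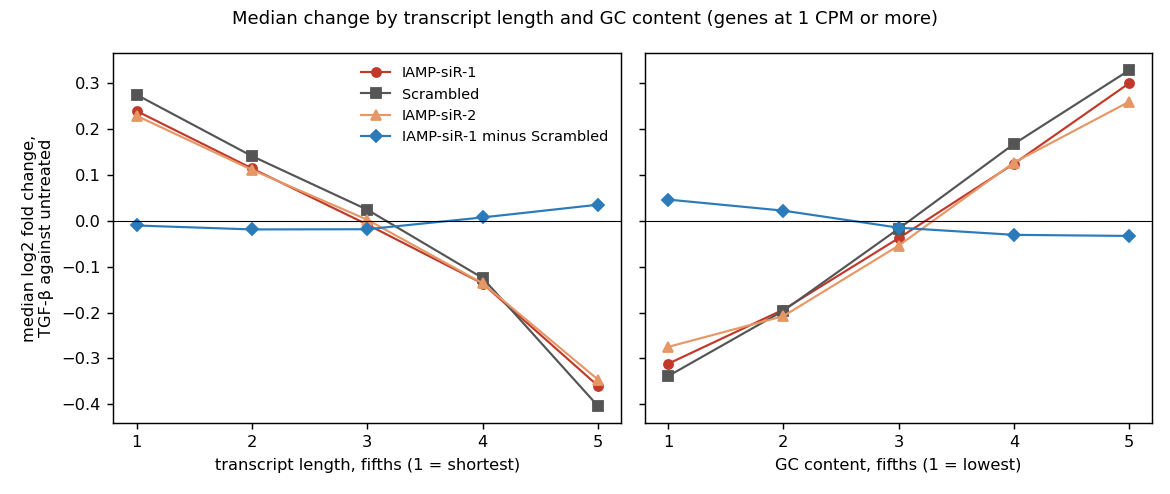
Median log2 fold change with TGF-β (vertical axis) for genes in quintiles of transcript length (left) and GC content (right), 1 line for each siRNA and 1 for the difference between IAMP-siR-1 and Scrambled. With IAMP-siR-1 the medians ran from 0.24 to −0.36 with length and from −0.31 to 0.30 with GC content, while the difference between the siRNAs stayed near 0.

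The targeted gene was read first. IAMP (4930523C07Rik, chr1:160044382-160080208, GRCm38) measured 2.54, 3.53 and 3.00 CPM in the untreated IAMP-siR-1 libraries and 4.6, 4.02 and 4.44 CPM with TGF-β. All 3 TGF-β values lay above the untreated ones, with a log2 fold change of 0.53 ± 0.11 (SE, n = 3 per group, edgeR adjusted p = 3.16e-04) that was under the threshold for a rise. Scrambled libraries ranged from 22.2 to 25.9 CPM untreated and from 19.2 to 22.7 CPM with TGF-β, so the targeted RNA was below Scrambled in every library under both conditions. The gap to Scrambled was −2.97 log2 units untreated and −2.24 with TGF-β. Its part in the differences between siRNAs described below was not tested.

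Among the ligands, activators and latent binders of the TGF-β family, 7 of 26 rose and 5 fell (median log2 fold change 0.32). Ltbp2, a latent TGF-β binding protein, had 23.8, 24.4 and 23.3 CPM untreated and 298, 272 and 279.7 CPM with TGF-β, a log2 fold change of 3.57 ± 0.06 (SE, n = 3, edgeR adjusted p = 3.82e-22). Fstl3, a secreted activin antagonist, went from 38.2 ± 0.596 to 214 ± 3.84 CPM (SD, n = 3). Tgfb1 itself rose from 85.0 ± 1.83 to 180.2 ± 3.32 CPM. Tgfb2 measured 59.2 ± 3.75 CPM untreated and 53.9 ± 3.01 CPM with TGF-β, with overlapping libraries, and Tgfb3 91.1 ± 6.62 and 65.9 ± 1.90 CPM, below the threshold for a fall. The falls included Inhba, the activin A subunit, with 759 ± 13.8 and 164 ± 4.42 CPM, Grem1, a BMP antagonist, with 10.1 ± 1.38 and 1.98 ± 0.314 CPM, and Thbs1, thrombospondin-1, an activator of latent TGF-β, with 8217 ± 48.7 and 2082 ± 49.5 CPM.

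Of 13 TGF-β and BMP receptors none rose and 2 fell, which were Bmpr1b and Bambi, a pseudoreceptor that dampens TGF-β signalling. Tgfbr1 had 49.8, 51.1 and 49.7 CPM untreated and 27.8, 25.7 and 26.2 CPM with TGF-β (log2 fold change −0.92 ± 0.05, SE, n = 3). Tgfbr2 had 185 ± 3.73 and 197 ± 2.25 CPM (SD, n = 3), a log2 fold change of 0.09.

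SMADs and early targets did not move one way: 2 of 23 rose and 6 fell, with a median of −0.49. The 2 that rose were Pmepa1, a TGF-β-induced inhibitor of SMAD signalling, from 269.6 ± 1.72 to 699.5 ± 15.2 CPM, and Junb, an AP-1 transcription factor, from 69.2 ± 0.491 to 173 ± 1.71 CPM. Smad7, the inhibitory SMAD, measured 134, 139 and 133 CPM untreated and 53.3, 55.0 and 54.1 CPM with TGF-β, a log2 fold change of −1.32 ± 0.04 (SE, n = 3, edgeR adjusted p = 5.18e-19). Id1, a BMP-SMAD target, fell from 47.5 ± 1.73 to 12 ± 1.02 CPM and Smurf2, a ubiquitin ligase for SMADs, from 493 ± 6.77 to 168 ± 2.44 CPM. Skil and Ccn2, a SMAD corepressor and a matricellular growth factor, had log2 fold changes of 0.14 and 0.07.

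Contractile genes of myofibroblasts were mixed, with 6 of 25 rising, 2 falling and a median of 0.34 (0.27 centred). Acta2, smooth muscle actin, measured 1293, 1265 and 1194 CPM untreated and 2050.4, 1976 and 1939 CPM with TGF-β. The groups did not overlap, and the log2 fold change of 0.67 ± 0.03 (SE, n = 3, edgeR adjusted p = 2.39e-14) stayed under the threshold, as did that of Tagln, transgelin, at 0.57 ± 0.04. Cnn1, calponin, rose from 2.23 ± 0.340 to 6.79 ± 0.359 CPM, Synpo2, synaptopodin-2, from 24.2 ± 0.773 to 114 ± 5.13 CPM, Myl9, a myosin light chain, from 38.7 ± 1.90 to 148 ± 2.22 CPM and Itga11, a collagen receptor subunit, from 25.1 ± 1.14 to 107 ± 8.19 CPM. The 2 that fell were Vcl, vinculin of focal adhesions, from 1139 ± 34.0 to 183 ± 2.94 CPM, and Myocd, a coactivator of smooth muscle genes that was near 1 CPM untreated. Nox4, an NADPH oxidase known as a TGF-β target, had 18.5, 18.7 and 18.3 CPM untreated and 60.3, 58.8 and 54.6 CPM with TGF-β, a log2 fold change of 1.65 ± 0.06. The cytokine gene Il11, another known target in CFs, rose from 1.09 ± 0.206 to 4.07 ± 0.617 CPM.

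**Figure D2:**
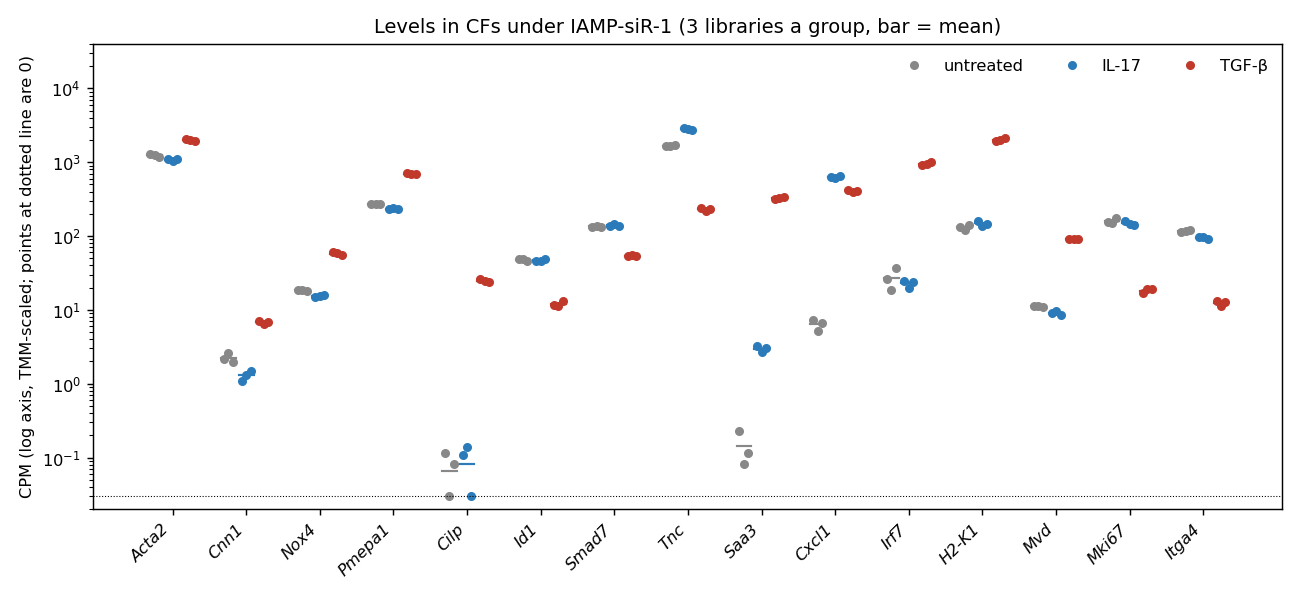
Levels of 15 genes in CFs with IAMP-siR-1, in TMM-scaled CPM on a log axis, for the untreated, IL-17 and TGF-β libraries (1 point per library, bars are means of 3). For Acta2, Nox4, Pmepa1, Irf7, H2-K1 and Mvd the TGF-β points lie above both other groups, for Smad7, Id1, Mki67 and Itga4 below both.

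Collagen genes did not rise as a group. Of 11 fibrillar collagen genes 1 rose and 2 fell (median 0.08, or −0.09 without the second TGF-β library). Col1a1 measured 5323, 5244 and 5351 CPM untreated and 6909, 6829.6 and 7016 CPM with TGF-β, above the untreated libraries in all 3 and with a log2 fold change of 0.38 ± 0.03 (SE, n = 3). Col1a2 had a log2 fold change of 0.08, Col3a1 one of −0.57, and Col5a1, which regulates fibril assembly, fell from 1402 ± 13.7 to 504 ± 13.4 CPM. Network, basement membrane and FACIT collagens had 9 of 18 lower and 1 higher (2 without the second TGF-β library), with a median of −1.06 (−1.0 centred). Col6a3 fell from 37.4 ± 4.29 to 3.89 ± 0.128 CPM, Col6a1 from 309.6 ± 17.8 to 109.7 ± 2.80 CPM and Col14a1 from 173 ± 5.69 to 60.9 ± 1.74 CPM, whereas Col8a2, a short-chain collagen, rose from 0.740 ± 0.181 to 11.3 ± 0.729 CPM. Transcripts of these collagen genes were long, with a median of 6454 bases against 3364 over genes at 1 CPM or more. Of 21 genes of collagen processing and cross-linking, Loxl4, a lysyl oxidase, fell and none rose (1 without the second TGF-β library).

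Small leucine-rich proteoglycans, which bind collagen fibrils, had 5 of 10 higher and none lower (median 0.95, 1.00 centred). Dcn, decorin, had 619, 594 and 611 CPM untreated and 2395, 2420.4 and 2354 CPM with TGF-β, a log2 fold change of 1.97 ± 0.04 (SE, n = 3). Aspn, asporin, rose from 7.21 ± 0.0236 to 48.0 ± 1.26 CPM, Fmod, fibromodulin, from 33.2 ± 1.3 to 97.7 ± 3.94 CPM and Prelp from 522 ± 1.05 to 1167 ± 31.3 CPM. Of 26 matricellular, elastic and glycoprotein genes 5 rose and 6 fell. Ccn5 rose from 283 ± 10.7 to 1131 ± 9.16 CPM and Comp, cartilage oligomeric matrix protein, from 1.85 ± 0.425 to 7.87 ± 0.591 CPM, whereas Tnc, tenascin-C, fell from 1685 ± 45.6 to 231 ± 12.9 CPM, Vcan, versican, from 235 ± 10.4 to 80.8 ± 2.89 CPM and Eln, elastin, from 411 ± 15.7 to 150.4 ± 16.9 CPM. Postn, periostin, and Fn1, fibronectin, had log2 fold changes of −0.93 and −0.67, both under the threshold. Cilp, a cartilage matrix protein that binds TGF-β, was at 0.116, 0 and 0.0809 CPM untreated and 26.2, 24.6 and 23.5 CPM with TGF-β, at least 154-fold higher against the floor of 18 estimated counts per library. Of 26 proteases and inhibitors 8 rose and 2 fell. Mmp12, macrophage elastase, rose from 3.34 ± 0.0291 to 33.6 ± 1.60 CPM and Mmp9 from 0.161 ± 0.104 to 3.64 ± 0.337 CPM, while Mmp3, stromelysin-1, had a log2 fold change of 0.90 and Mmp13, a collagenase, one of 0.38.

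The largest rises were of another kind. Among the 15 with the largest log2 fold change were the acute-phase and antimicrobial genes Saa3, Lcn2 and Hp, the inducible nitric oxide synthase Nos2, the chemokine Ccl5, the MHC class I genes H2-Q5, H2-Q6 and H2-Q7, the interferon-inducible Ifi206 and Ifi208 and the transcription factor Pou2f2, beside Vnn3, Cilp, Cngb3 and Angptl7. Saa3, serum amyloid A3, had 0.231, 0.0807 and 0.117 CPM untreated and 318, 328 and 338 CPM with TGF-β, a log2 fold change of 11.15 ± 0.24 (SE, n = 3, edgeR adjusted p = 3.52e-14). Lcn2, lipocalin-2, which binds bacterial siderophores, had 1.97, 0.986 and 1.29 CPM untreated and 872, 889 and 922 CPM with TGF-β. Of 14 tested acute-phase and antimicrobial genes, a list added after the data had been seen, 8 rose and 1 fell (median 4.64), against 10 that rose and none that fell with Scrambled. In sum the list went from 1299 to 1408 CPM untreated to 2517 to 2637 CPM with TGF-β, a smaller change than that median. The change was lower than with Scrambled in 4 of the 14 and higher in none, with a median log2 difference of −0.83. The H2-Q, Ifi20x and Saa genes have near-identical copies between which reads could be split, so their single values are uncertain.

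Interferon-stimulated genes rose in every member tested, 26 of 26, with a median log2 fold change of 3.48 (3.41 centred). Summed over the list, the untreated libraries held 633 to 1103 CPM and the TGF-β libraries 7780.4 to 9038 CPM. Irf7, a transcription factor that amplifies interferon output, measured 26.3, 18.3 and 36.6 CPM untreated and 922, 954 and 1002 CPM with TGF-β, a log2 fold change of 5.15 ± 0.26 (SE, n = 3, edgeR adjusted p = 6.49e-10). Oas3, which makes the activator of RNase L, rose from 0.866 ± 0.526 to 62.4 ± 7.91 CPM, Ifi44 from 12.5 ± 6.71 to 390.4 ± 37.0 CPM and the antiviral enzyme Rsad2, viperin, from 11.4 ± 4.93 to 149.8 ± 21.9 CPM. The untreated libraries were uneven here, with Ifi44 at 10.7, 6.82 and 19.9 CPM, and each TGF-β library lay far above the highest of them. MHC class I antigen presentation, a list added after the data had been seen, had 16 of 17 genes higher (median 2.28, 2.07 centred). H2-K1, a classical class I heavy chain, went from 132 ± 11.3 to 2015 ± 92.6 CPM, Tap1, the peptide transporter, from 16.9 ± 5.54 to 155 ± 15.5 CPM and Psmb8, an immunoproteasome subunit, from 4.46 ± 1.18 to 85.2 ± 5.70 CPM. The interferon and class I lists also rose with Scrambled (26 of 26 and 16 of 17) and with IAMP-siR-2 (26 and 17).

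Promoters were searched for the core of the interferon-stimulated response element, TTTC and TTTC with any 2 bases between, on both strands from 250 bases before to 50 after the start (RefSeq sequences, GRCm38.p6). It was present in 12 of 21 interferon-stimulated promoters with an entry, 57.1%. The element was in 3.99% of all 27025 promoters and 3.77% of those of tested genes. It was in 7.56% of promoters of genes that rose and 3.77% of those of genes that fell. The windows below are those of genes named here, chosen to show the element, which is in capitals; each is written 5′ to 3′ on the strand of the gene, and Oas3 carries the element on the opposite strand.
Oas3 (chr5:120777715-120777744, minus strand): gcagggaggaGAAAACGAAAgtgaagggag
Rsad2 (chr12:26456553-26456582, minus strand): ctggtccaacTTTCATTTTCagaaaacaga
The matches describe letters in these windows and do not show that a factor bound there. The palindromic SMAD sequence GTCTAGAC was in 0.22% of the promoters of genes that rose (4 of 1786) and 0.68% of those that fell (7 of 1034). It was in 0.29% of the promoters of tested genes and 0.25% of all, and the counts were small.

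Chemokines and inflammatory cytokines had 29 of 37 higher and 3 lower, with a median of 3.17 (3.05 centred). Cxcl1, a neutrophil chemoattractant, had 7.24, 5.09 and 6.69 CPM untreated and 423, 395 and 411 CPM with TGF-β, a log2 fold change of 6.01 ± 0.13 (SE, n = 3, edgeR adjusted p = 2.81e-14). Cxcl5, of the same receptor family, went from 284 ± 5.30 to 2569 ± 126 CPM, Ccl7, a monocyte chemoattractant, from 118 ± 3.44 to 1221 ± 46.1 CPM and Il6 from 49.3 ± 0.718 to 144 ± 5.89 CPM. Nos2 was at 0.151, 0 and 0.171 CPM untreated and at 58.1, 62.1 and 73.1 CPM with TGF-β. The 3 that fell were Ptgs2, cyclooxygenase-2, from 342 ± 5.98 to 90.0 ± 5.74 CPM, Ccl9 from 60.3 ± 5.76 to 25.6 ± 2.35 CPM and Cxcl12, a homeostatic chemokine, from 378 ± 7.14 to 171 ± 3.78 CPM. Of 15 complement genes 8 rose and 5 fell. C3, the central component, rose from 129 ± 19.1 to 1372 ± 37.8 CPM and Cfb, factor B of the alternative pathway, from 3.93 ± 0.907 to 209 ± 17.7 CPM. Of 10 IL-17 signalling genes that the study named for being raised on IAMP knockdown in its own libraries, 7 rose with TGF-β, and their direction is no independent evidence.

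A κB-type sequence, GGGA and TTCC with any 2 bases between, was searched on both strands. It was in 7 of 27 chemokine and cytokine promoters with an entry, 25.9%. Of all promoters 1.63% held it, and of those of tested genes 1.74%. It was in 2.58% of promoters of genes that rose and 1.74% of those of genes that fell. The window of Cxcl1 is shown with it in capitals.
Cxcl1 (chr5:90891164-90891193, plus strand): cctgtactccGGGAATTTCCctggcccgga

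Cholesterol synthesis was the most uniform metabolic list, with 20 of 22 genes higher, none lower and a median of 1.40 (1.55 centred). Mvd, mevalonate diphosphate decarboxylase, had 11.3, 11.2 and 11.0 CPM untreated and 91.5, 90.5 and 90.4 CPM with TGF-β, a log2 fold change of 3.02 ± 0.05 (SE, n = 3, edgeR adjusted p = 8.31e-23). Insig1, a sterol sensor, rose from 69.3 ± 1.16 to 449 ± 11.6 CPM and Hmgcs1, the synthase for HMG-CoA, from 48.0 ± 0.864 to 287 ± 6.62 CPM. With Scrambled 17 of the 22 rose and with IAMP-siR-2 10. Genes of serine, glycine and proline synthesis and of the ATF4 stress response had 6 of 22 higher and 2 lower, with Trib3, an ATF4 target, at 3.19 ± 0.136 and 22.3 ± 0.828 CPM, Pycr1, of proline synthesis, at 9.99 ± 0.394 and 27 ± 1.92 CPM, and Psat1, of serine synthesis, falling from 56.3 ± 4.44 to 18 ± 0.583 CPM. Of 25 glycolytic and HIF target genes 1 rose and 1 fell (2 without the second TGF-β library). Of 22 oxidase, NRF2 and glutathione genes 6 rose and 1 fell; Sod3, the secreted superoxide dismutase, rose from 131 ± 6.46 to 532 ± 21.7 CPM and Txnrd1, thioredoxin reductase, fell from 601 ± 6.66 to 267 ± 4.67 CPM.

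Cell cycle genes fell, 23 of 31, and none rose, with a median of −1.53 (−1.62 centred). Mki67, a proliferation marker, had 157, 149 and 173 CPM untreated and 16.7, 19.1 and 19.0 CPM with TGF-β, a log2 fold change of −3.13 ± 0.10 (SE, n = 3, edgeR adjusted p = 1.12e-13). The mitotic kinesins Kif11 and Kif23 went from 46.9 ± 1.35 to 8.40 ± 0.655 CPM and from 35.4 ± 1.15 to 6.26 ± 0.952 CPM, and Ccnb1, cyclin B1, from 73.8 ± 3.57 to 14.7 ± 2.86 CPM. In bulk RNA fewer cells of a kind and less RNA per cell cannot be told apart. Cdkn2b, the inhibitor p15 and a known TGF-β target, rose from 16.1 ± 1.24 to 105 ± 2.18 CPM, and Gadd45b, a stress gene, from 17.8 ± 0.748 to 81.5 ± 1.10 CPM; they were 2 of 3 rises among 17 inhibitors and p53 targets.

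The CHR element TTTGAA, known from cell cycle promoters, was in 12 of 25 cell cycle promoters, 48.0%, on either strand. It was in 20.2% of all promoters and in 15.5% of those of tested genes, from which the called genes come. It was in 19.5% of promoters of genes that fell and 17.0% of those of genes that rose. The windows of 2 of the named genes are shown with it in capitals; Kif11 carries it on the opposite strand, and the windows of Mki67 overlap.
Mki67, upstream (chr7:135716478-135716507, minus strand): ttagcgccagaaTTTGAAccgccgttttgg
Mki67, downstream (chr7:135716460-135716489, minus strand): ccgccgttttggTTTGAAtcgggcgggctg
Kif11 (chr19:37376351-37376380, plus strand): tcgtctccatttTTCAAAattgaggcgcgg

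Integrins had 9 of 17 lower and 2 higher, with a median of −1.04 (−0.86 centred; median transcript length 5044 bases). Itga4, of the fibronectin and VCAM receptor, had 112, 116 and 119.7 CPM untreated and 13.1, 11.1 and 12.7 CPM with TGF-β, and Itgb3, of the vitronectin receptor, 101 ± 1.86 and 12.7 ± 0.317 CPM. The 2 that rose were Itga11 and Itgb5, a TGF-β-activating integrin subunit, from 599 ± 15.9 to 1530.1 ± 26.7 CPM.

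The 15 largest falls included Dkk2, Wnt7a, Fgf10, Mycn, Hmga2 and Aldh1a3, the desmosomal Pkp1, the collagen gene Col28a1, the receptors Npr3, S1pr3 and Cd300lb, the cytokine Tnfsf15, Pkhd1l1 and the troponin gene Tnnt2. Dkk2, a WNT antagonist, had 6.12, 5.75 and 5.87 CPM untreated and 0.474, 0 and 0.184 CPM with TGF-β, a log2 fold change of −4.75 ± 0.72 (SE, n = 3, edgeR adjusted p = 5.75e-05). Hmga2, a chromatin protein of growing cells, went from 228 ± 6.43 to 15.9 ± 0.816 CPM, Npr3, the natriuretic peptide clearance receptor, from 80.3 ± 2.83 to 5.52 ± 0.461 CPM, and Fgf10 from 11.2 ± 1.48 to 0.700 ± 0.161 CPM. The other lists were divided. WNT ligands and antagonists had 5 higher and 7 lower of 20, growth factors and their binders 6 and 5 of 32, chondrogenic and osteogenic genes 6 and 2 of 20, immediate-early genes 2 and 2 of 18. Of 24 genes of CF identity 7 rose and 8 fell; Ly6a, a progenitor marker, rose from 24.8 ± 0.868 to 208 ± 15.7 CPM, Pdgfra fell from 417 ± 16.8 to 192 ± 1.26 CPM and Tcf21, a CF transcription factor, had a log2 fold change of −0.73.

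**Figure D3:**
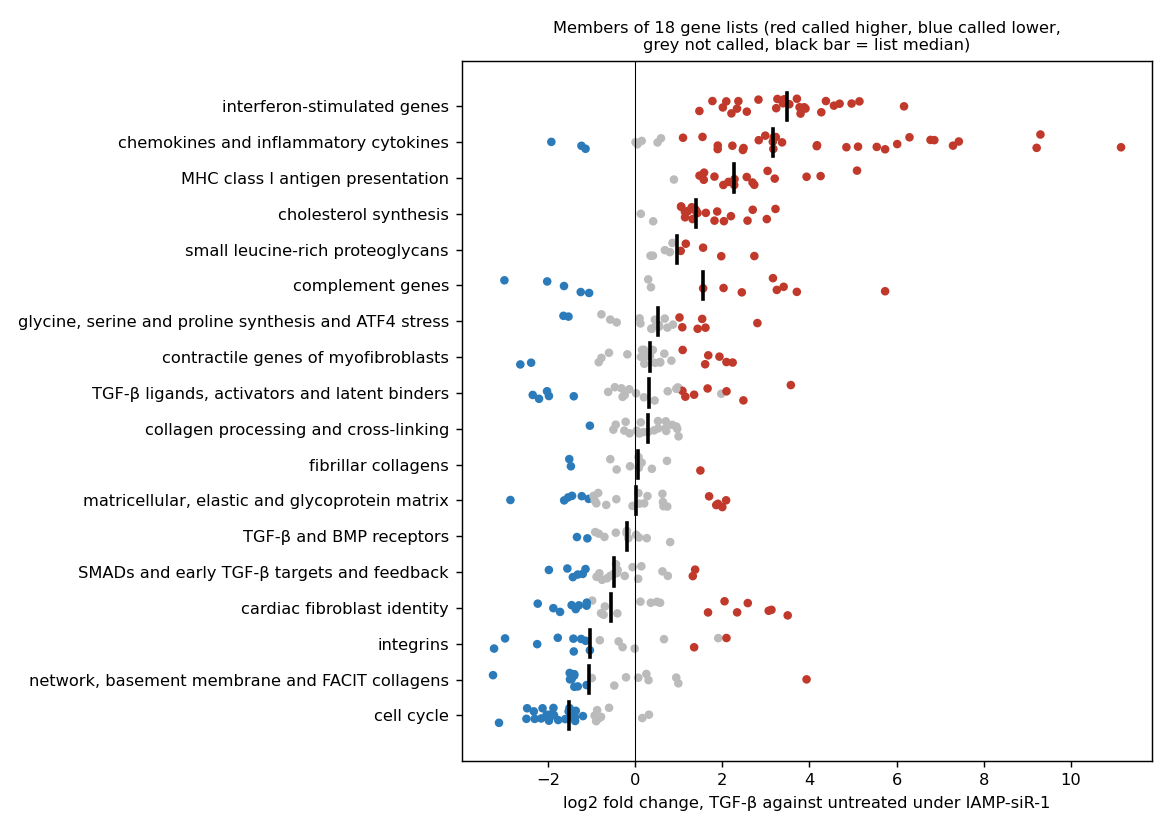
Log2 fold change with TGF-β (horizontal axis) of the tested members of 18 gene lists in CFs with IAMP-siR-1, 1 point per gene (red called higher, blue called lower, grey not called) and a bar at the list median. Interferon-stimulated genes (median 3.48) lie wholly to the right of 0 and cell cycle genes (median −1.53) mostly to the left, while the TGF-β receptors, SMADs and fibrillar collagens lie on both sides.

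Markers of other cell types moved between the same libraries, and their part in the changes above was not tested. Macrophage markers summed to 62.5 to 66.2 CPM untreated and 135 to 151 CPM with TGF-β, with 6 of 12 higher and 3 lower. Lyz2 was the largest member of both sums, with unscaled means of 35.7 CPM untreated and 94.0 CPM with TGF-β. Adgre1, which encodes F4/80, went from 1.04 ± 0.149 to 4.50 ± 0.419 CPM. The 3 lower genes were C1qa, C1qb and C1qc. Unscaled means went from 1.59 to 0.412 CPM for C1qb and from 1.67 to 0.218 CPM for C1qc. Endothelial markers summed to 91.0 to 98.5 and 147 to 149.9 CPM (6 of 10 higher, 1 lower). Mesothelial markers went the other way, from 131 to 138 down to 31.9 to 37.7 CPM (3 of 10 higher, 5 lower), with Upk3b, a defining gene, at 48.1 ± 1.63 and 12.7 ± 0.969 CPM. Cardiomyocyte markers summed to 41.1 to 46.1 and 4.47 to 6.06 CPM (3 of 8 higher and 2 lower, or 1 and 1 without the second TGF-β library), mostly Tnnt2, with a mean of 42.9 CPM untreated and 3.46 CPM with TGF-β, and the defining Myh6 was at 0 in all 3 TGF-β libraries. Pericyte and smooth muscle markers summed to 785 to 815 and 792 to 818 CPM (1 of 9 higher, 1 lower), Schwann cell markers to 17.8 to 19.0 and 15.3 to 16.0 CPM (2 of 7 higher, none lower), and lymphocyte markers stayed at or below 0.197 CPM (1 of 3 higher, none without that library). Of 5 sex-linked genes none was called.

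How the response differed from that with Scrambled was tested as the difference between both log2 fold changes, in which a shift between the tables common to both siRNAs drops out. The change was higher with IAMP-siR-1 in 307 genes (1.43% of those tested) and lower in 201 (0.935%). In many of these genes the untreated IAMP-siR-1 and Scrambled libraries differed. That untreated gap enters the difference with a minus sign, so choosing genes by the difference favours the direction it has below. Of the 307, IAMP-siR-1 was below Scrambled past the same threshold in 197 untreated and in 1 with TGF-β, and above it in 35 with TGF-β. Of the 201, it was above in 143 untreated and in 10 with TGF-β. The median gap in size was 1.39 log2 units untreated and 0.41 with TGF-β in the first set, and 1.52 and 0.42 in the second. In untreated cells 448 genes had a higher level with IAMP-siR-1 than with Scrambled and 579 a lower one, and with TGF-β 163 and 101.

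**Figure D4:**
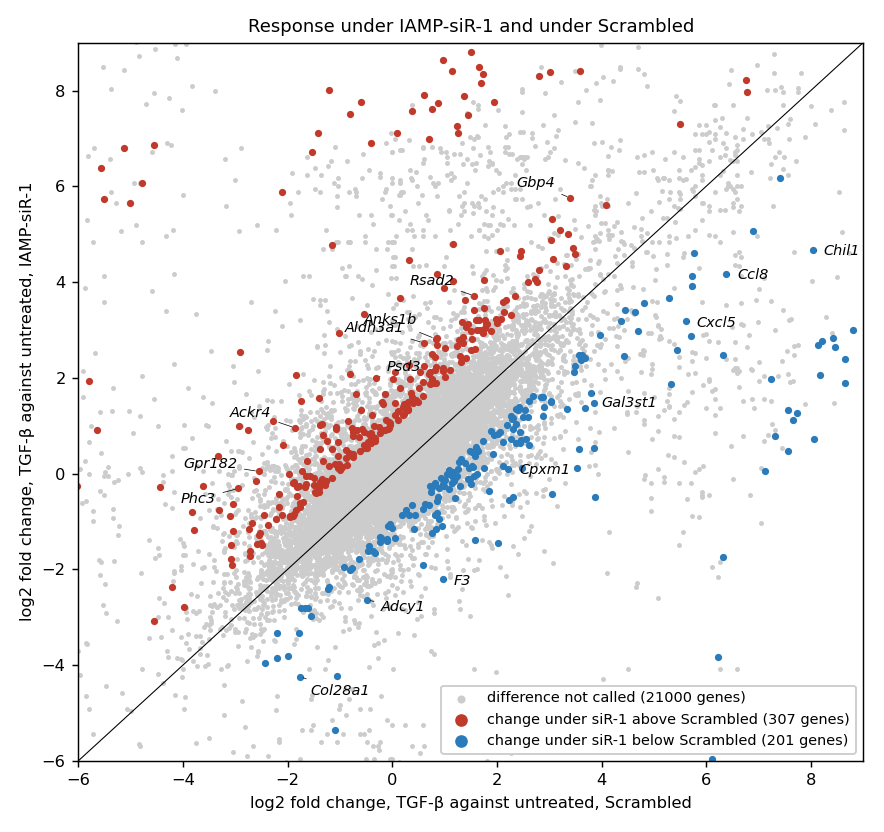
Log2 fold change with TGF-β with Scrambled (horizontal) and IAMP-siR-1 (vertical) for each tested gene; coloured points are the 307 genes with a higher and the 201 with a lower change with IAMP-siR-1, and the line marks equal change. F3, Cxcl5 and Col28a1 lie below the line and Ackr4, Psd3 and Phc3 above it; 236 genes fall outside the axes.

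F3, tissue factor, the starter of coagulation, had 427, 433 and 429.9 CPM in untreated IAMP-siR-1 libraries and 87.8, 99.3 and 91.7 CPM with TGF-β, against 31.3 ± 1.13 and then 60.9 ± 3.62 CPM (SD, n = 3) with Scrambled. IAMP-siR-1 was above Scrambled in every library under both conditions, by 3.78 log2 units untreated and 0.61 with TGF-β, and the log2 difference of the changes was −3.17 ± 0.06 (SE, n = 3 per group, edgeR adjusted p = 2.70e-20). Col28a1 went from 47.8 ± 1.24 to 2.53 ± 0.246 CPM with IAMP-siR-1 and from 8.44 ± 0.716 to 2.47 ± 0.128 CPM with Scrambled (−2.47 ± 0.10). Cxcl5 started at 284 ± 5.30 CPM with IAMP-siR-1 and 29.4 ± 1.10 CPM with Scrambled and reached 2569 ± 126 and 1431 ± 55.3 CPM, a difference of −2.43 ± 0.06. Ccl7 (−1.27 ± 0.07) and Ccl8 (−2.21 ± 0.21) were alike in this, both higher with IAMP-siR-1 under either condition. Cpxm1, a carboxypeptidase-like matrix protein, had 173 ± 8.86 and 186 ± 1.57 CPM with IAMP-siR-1 and 19.2 ± 1.96 and 89.4 ± 4.39 CPM with Scrambled (−2.12 ± 0.08). The other large negative differences were Chil1, a chitinase-like protein (−3.36 ± 0.98, no longer called at −2.80 to −3.25 without replicate 1 or 2 of untreated Scrambled, 1 or 3 of untreated IAMP-siR-1 or 1 of either TGF-β group), Adcy1, an adenylate cyclase (−2.15 ± 0.26), and Gal3st1, a sulfotransferase (−2.11 ± 0.24). Of the 37 chemokines and cytokines 6 had a lower change with IAMP-siR-1 and 4 a higher one, with a median difference of 0.08. Of the 10 IL-17 signalling genes 5 had a lower change. These genes were chosen for a higher level with the IAMP siRNAs in these untreated libraries, a level that enters the difference with a minus sign.

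Among contractile genes, Acta2 was at 1251 ± 50.8 CPM with IAMP-siR-1 and 1054 ± 18.9 CPM with Scrambled in untreated cells, and at 1988 ± 56.9 and 3083 ± 84.3 CPM with TGF-β. The log2 difference was −0.88 ± 0.05 (SE, n = 3, edgeR adjusted p = 6.75e-12), inside the threshold of 1, with every Scrambled TGF-β library above every IAMP-siR-1 one. Tagln followed with 733 ± 28.2 against 1101 ± 23.9 CPM under TGF-β (difference −0.83 ± 0.06). Cnn1 had 7.14, 6.42 and 6.81 CPM with IAMP-siR-1 and TGF-β and 14.2, 11.8 and 15.7 CPM with Scrambled and TGF-β, a difference of −1.24 ± 0.23 (edgeR adjusted p = 2.41e-04). Cnn1 was the 1 member of the 25 past the threshold, and the median difference of the list was −0.31 against 0.02 over all genes. Ltbp2 ended at 283 ± 13.5 CPM with IAMP-siR-1 and 444 ± 22 CPM with Scrambled (difference −1.24 ± 0.08). Col1a1 reached 6918 ± 93.5 and 6918 ± 191 CPM under TGF-β from 5306 ± 55.4 and 3769 ± 61.9 CPM, a difference of −0.49 ± 0.04.

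**Figure D5:**
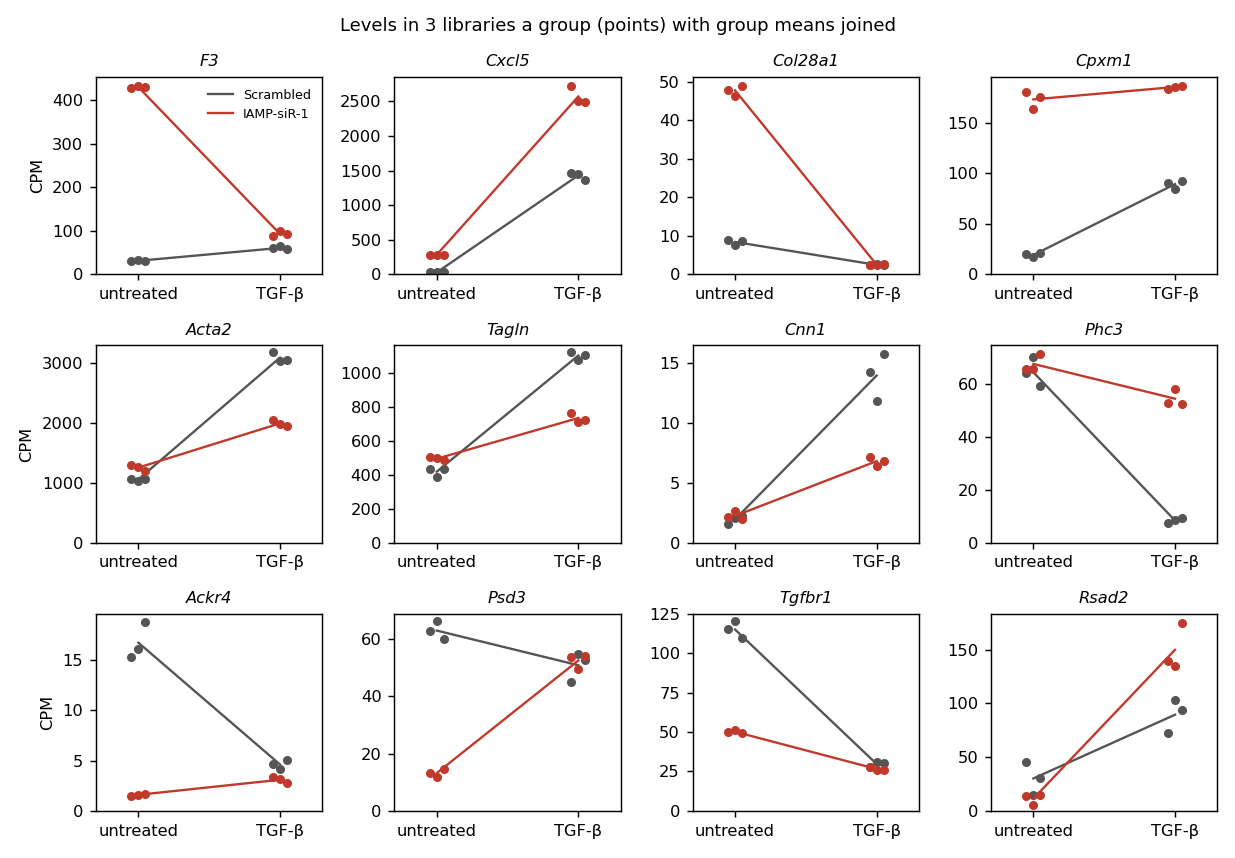
Levels of 12 genes in CPM (linear axes from 0) in untreated and TGF-β libraries with Scrambled (grey) and IAMP-siR-1 (red), 1 point per library and lines joining means of 3. For F3 the gap between the siRNAs is 3.78 log2 units without and 0.61 with TGF-β and for Col28a1 2.50 and 0.03, while for Acta2 it is 0.25 and −0.63, for Tagln 0.24 and −0.59 and for Cnn1 0.20 and −1.04 (IAMP-siR-1 minus Scrambled).

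On the positive side, Ackr4, a scavenging chemokine receptor, had 1.60 ± 0.105 and 3.10 ± 0.282 CPM with IAMP-siR-1 and 16.7 ± 1.80 and 4.62 ± 0.454 CPM with Scrambled, a difference of 2.81 ± 0.20 (SE, n = 3, edgeR adjusted p = 3.98e-10). Gpr182, another chemokine-scavenging receptor, was also below Scrambled, by −2.85 log2 units untreated and −0.25 with TGF-β (difference 2.59 ± 0.32). Its log2 fold change with IAMP-siR-1 was near 0, from −0.035 to 0.097 with 1 library left out. Psd3, an exchange factor for ARF6, rose with IAMP-siR-1, from 13.2 ± 1.38 to 52.5 ± 2.50 CPM. With Scrambled it had 62.9 ± 3.11 and 50.8 ± 5.28 CPM (difference 2.30 ± 0.10). Tgfbr1 was at 50.2 ± 0.796 CPM with IAMP-siR-1 and 115 ± 5.52 CPM with Scrambled when untreated and at 26.6 ± 1.13 and 29.8 ± 1.85 CPM with TGF-β, a difference of 1.03 ± 0.07, which was 0.98 without the first Scrambled TGF-β library and 0.997 without the first IAMP-siR-1 one. Phc3, a Polycomb protein, had 67.4 ± 3.29 and 64.3 ± 5.50 CPM in untreated cells and 54.3 ± 3.29 and 8.37 ± 0.915 CPM with TGF-β, a difference of 2.63 ± 0.12. Its level was uneven within the IAMP-siR-1 and IL-17 group, at 16.1, 63.0 and 14.6 CPM. Aldh3a1, an aldehyde dehydrogenase, also differed mainly with TGF-β, at 14.9 ± 1.34 against 5.00 ± 0.349 CPM (2.13 ± 0.18). Rsad2 (2.14 ± 0.53) and Gbp4 (2.36 ± 0.67), both interferon-inducible, were uneven in the untreated Scrambled libraries, Rsad2 at 45.3, 14.6 and 30.6 CPM. Gbp4 no longer passed (2.11 to 2.39) without replicate 1 or 3 of untreated Scrambled, 1 or 2 of untreated IAMP-siR-1, 1 of Scrambled with TGF-β or 2 or 3 of IAMP-siR-1 with TGF-β. Rsad2 was the 1 of the 26 interferon-stimulated genes past the threshold, and the median difference of that list was 0.49. Anks1b closed the 8 largest with 1.99 ± 0.21.

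IAMP-siR-2, with IAMP at 1.85 ± 0.0642 CPM untreated and 3.27 ± 0.431 CPM with TGF-β, targets the same RNA. The change with IAMP-siR-1 was higher than with IAMP-siR-2 in 408 genes (1.9%) and lower in 374 (1.74%). Of 31 genes named by rule in any case, 6 passed the threshold, of which 5 are given here. Fn1 had a log2 fold change of −0.67 with IAMP-siR-1 and 0.90 with IAMP-siR-2 (difference −1.56 ± 0.06, SE, n = 3, edgeR adjusted p = 1.25e-15), Postn −0.93 and 0.21 (−1.14 ± 0.05) and Tagln 0.57 and 1.60 (−1.03 ± 0.06). Il6 and Il11 went the other way, with 1.54 and 0.22 (1.33 ± 0.06) and 1.89 and 0.88 (1.01 ± 0.22). For Acta2 the log2 fold changes were 0.67 with IAMP-siR-1, 1.27 with IAMP-siR-2 and 1.55 with Scrambled, and for Col1a1 0.38, 1.13 and 0.88. In the same order they were 3.57, 4.77 and 4.82 for Ltbp2 and 1.61, 2.45 and 2.84 for Cnn1. The median of the contractile list was 0.34, 0.55 and 0.70. F3 fell with both siRNAs against IAMP, by 2.21 and 1.93.

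Set against CFs with the same siRNA and IL-17, from another table, 2704 genes were higher with TGF-β (12.1% of 22359 tested) and 1926 lower (8.61%). This comparison uses the same TGF-β libraries as the one with untreated cells, so the levels are given side by side. The interferon-stimulated list summed to 645 to 773 CPM with IL-17, against 633 to 1103 CPM untreated and 7780.4 to 9038 CPM with TGF-β, and all 26 genes were higher with TGF-β than with IL-17. Cholesterol synthesis summed to 1283 to 1325 CPM with IL-17 and 4153 to 4291 CPM with TGF-β (20 of 22 higher), and cell cycle genes to 1529 to 1610 and 567 to 619 CPM (23 of 31 lower). Chemokines and cytokines were near each other in sum, at 12080.0 to 12544 CPM with IL-17 and 12674 to 13048 CPM with TGF-β, with 11 of 37 higher and 8 lower. Cxcl5 had 2726, 2548 and 2742 CPM with IL-17 and 2715, 2502 and 2491 CPM with TGF-β (log2 difference −0.06 ± 0.04, edgeR adjusted p = 0.198), with overlapping libraries. Nos2 was at 48.7, 43.1 and 49.4 CPM with IL-17 and 58.1, 62.1 and 73.1 CPM with TGF-β, a log2 difference of 0.45 ± 0.21 (adjusted p = 0.0748), and Csf3, a neutrophil growth factor, at 2.14 ± 0.276 and 2.25 ± 0.375 CPM. Il6 was higher with IL-17 (524 ± 22.4 against 144 ± 5.89 CPM), as was Ptgs2 (879.7 ± 52.6 against 90.0 ± 5.74 CPM). Lcn2 (36.3 ± 1.70 against 894 ± 25.4 CPM) and Saa3 (2.97 ± 0.251 against 328 ± 10.2 CPM) were higher with TGF-β. Their list of acute-phase and antimicrobial genes nevertheless summed to more with IL-17, 2960 to 3008 CPM against 2517 to 2637 CPM with TGF-β. Of its 14 tested genes 8 were higher with TGF-β and 2 lower. Acta2 was at 1081 ± 40.0 CPM with IL-17 and Nox4 at 15.4 ± 0.451 CPM, both below the TGF-β level in every library.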

How the data were processed

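RNA of adult mouse CFs was sequenced by the submitters. Per the labels, reads were processed with cutadapt, HISAT2, StringTie and DESeq2 on GRCm38. The deposited tables, 1 per stimulus, hold estimated counts per gene made by the authors, not normalised, with totals of 104139670 to 119232309 in the 18 untreated and TGF-β libraries. A read pair may stand for up to 6 estimated counts, so the floor was set at 18 per library. Columns named by siRNA number were assigned to IAMP-siR-1 and IAMP-siR-2 through the sample descriptions.

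The 18 libraries were joined on gene_id and fitted together (edgeR 4.0.16, R 4.3.3, TMM scaling, filterByExpr, robust quasi-likelihood test, Benjamini-Hochberg adjustment over all genes tested); no covariate was used. Calls needed an adjusted p not above 0.05 and a log2 fold change of 1 or more in size. CPM are TMM-scaled; those of IL-17 libraries come from a fit of 27 libraries, and summed CPM of lists are unscaled. Errors are SD of 3 libraries or SE of the log2 fold change. Named genes were the 15 largest rises and falls (mean of at least 5 CPM, groups not overlapping, no Gm or Rik models), the 8 largest differences in each direction, the 4 largest rises and falls called in each list, and 31 genes in any case. The members and lists were chosen with earlier results of these data known, and the MHC class I and acute-phase lists after the data had been seen. Transcript length and GC content came from GENCODE vM21 for 99.7% of genes tested. Scripts were tested on simulated data. Alternatives were other scalings and filters, DESeq2 1.42.0, a replicate block, a threshold of 1.5-fold and leaving out each library. Heart samples were not analysed here. Some genes that the rule names are not reported here.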

Additional observations from a re-analysis of the deposited data

Results flagged for a closer look

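The results below differed between siRNAs under the same contrast, TGF-β against untreated, by a test of the difference itself (edgeR quasi-likelihood test). The change was higher with IAMP-siR-1 than with Scrambled in 307 genes and lower in 201, and against IAMP-siR-2 it was higher in 408 and lower in 374. Among named genes the log2 difference to Scrambled was positive for Ackr4 (2.81), Phc3 (2.63), Gpr182 (2.59), Gbp4 (2.36), Psd3 (2.30), Rsad2 (2.14), Aldh3a1 (2.13), Anks1b (1.99), Ccl5 (1.80), H2-Q5 (1.46), Psmb8 (1.44), H2-Q7 (1.19), Hmgcs1 (1.06) and Tgfbr1 (1.03). H2-Q5 was no longer called (1.07 to 1.43) without replicate 2 or 3 of untreated Scrambled or 2 of untreated IAMP-siR-1, and H2-Q7 (0.90 to 1.33) without replicate 2 or 3 of untreated Scrambled, 1 or 3 of untreated IAMP-siR-1, 1 or 2 of Scrambled with TGF-β or 2 or 3 of IAMP-siR-1 with TGF-β.

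It was negative for Chil1 (−3.36), F3 (−3.17), Col28a1 (−2.47), Cxcl5 (−2.43), Ccl8 (−2.21), Adcy1 (−2.15), Cpxm1 (−2.12), Gal3st1 (−2.11), Aldh1a3 (−1.81), Npr3 (−1.66), Mycn (−1.53), Ccl7 (−1.27), Ltbp2 (−1.24), Cnn1 (−1.24), Bmpr1b (−1.13), Col14a1 (−1.07) and C3 (−1.04). C3 was no longer called (−0.89 to −0.97) without replicate 2 of untreated Scrambled, 1 of untreated IAMP-siR-1 or 3 of Scrambled with TGF-β, nor Bmpr1b (−0.97) without replicate 2 of Scrambled with TGF-β. S100a8, a calgranulin, had a fitted difference of −5.46 that depends on the prior count, since the untreated Scrambled libraries were all at 0; with IAMP-siR-1 it was at 0.142, 0.197 and 0 CPM untreated and 0.874, 0.600 and 0.848 CPM with TGF-β, and with Scrambled and TGF-β at 0.321, 0.358 and 0.319 CPM. Groups had 3 libraries, too few for a test of single outlying libraries.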

How the results depend on the processing

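The counts of genes called kept within 1.5 times of the reported ones under the other scalings, filters, scale of counts, DESeq2, a fit of the compared groups alone and the replicate block. A threshold of 1.5-fold in place of a log2 fold change of 1 gave 3320 genes lower with TGF-β under IAMP-siR-1, 702 higher and 504 lower in the difference to Scrambled, 928 and 1032 in the difference to IAMP-siR-2, and 3516 lower than with IL-17. Leaving out 1 library at a time gave 2588 to 2624 genes higher and 1638 to 1701 lower with TGF-β, 257 to 332 and 176 to 213 for the difference to Scrambled, 370 to 419 and 356 to 405 for that to IAMP-siR-2, and 2510 to 2582 and 1836 to 1851 against IL-17. With the replicate number as a block the counts were 2749 and 1703, 290 and 188, 380 and 361, and 2668 and 1897. Deviations of same-numbered libraries correlated from −0.11 to 0.09 and those of differently numbered ones from −0.14 to 0.17. The check gave no sign of pairing by number, but with 3 libraries per group it could not exclude it. Library size alone moved the median of all genes from 0.06 to 0.14 and the share of calls that were higher in the difference to Scrambled from 60.4 to 69.1%.

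The log2 fold change of Gpr182, 0.04, ranged from −0.035 to 0.097 with 1 library left out, being −0.035 without IAMP-siR-1 replicate 2 and −0.0096 without IAMP-siR-1 TGF-β replicate 2. Hp (6.17 with DESeq2) was given no adjusted p by DESeq2 and so could not be called there. Loxl4 lost its call with library size alone (−0.96). Of the differences to Scrambled, 37 values of 9 named genes lost theirs, among them H2-Q7 under 11 alternatives, 8 of them left-out libraries, H2-Q5 under 4, 3 of them left-out libraries, and C3 (−0.96) and Col14a1 (−0.99) with library size alone. IAMP-siR-1 TGF-β replicate 2 was chosen after seeing the data for its place on a principal component. On component 3 it was at −8.50, against −11.4 and −10.4 in its group, while untreated Scrambled libraries spanned 14.7 to 19.0. Without this replicate, 1 of 8 cardiomyocyte markers was higher and 1 lower, beside the list counts given with it above. Genes near 18 estimated counts per library could not be measured well at this depth.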
